A study of Mus musculus with 18 samples.

Results

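The mean of a rosuvastatin effect and an atorvastatin effect on the liver transcriptome was estimated against vehicle in cholesterol-fed mice, with equal weight for each drug. All 18 samples of the series entered it, 12 from statin-treated mice (6 for each drug) and 6 from vehicle-treated mice, assigned by the treatment named in their labels. Vehicle mice received tap water by mouth, rosuvastatin mice 20 mg/kg and atorvastatin mice 40 mg/kg, each as a single dose, and livers were taken 24 h later. All were female C57BL/6 mice of 16 weeks, and all, vehicle included, had been moved from chow to a diet with 1% cholesterol for 1 week, so that a chow-fed liver was not part of the comparison. Doses differed between the drugs, and drug and dose cannot be told apart. RNA of the left lateral lobe was hybridised to a small cDNA array of sterol, drug, lipid and glucose metabolism, inflammation and clock genes. On every array the mouse carried Cy3 and a pool of all samples carried Cy5. Levels below are log2 ratios of mouse over pool, and an average effect is the log2 difference of statin minus vehicle.

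Statins block the enzyme that makes mevalonate, the precursor of cholesterol and of isoprenoids. In liver a fall in sterols releases SREBP transcription factors from the endoplasmic reticulum, and these switch on the genes of cholesterol synthesis and lipoprotein uptake, while dietary cholesterol holds SREBP back. The nuclear receptors PXR and CAR, which sense drugs and bile acids, control P450 enzymes and transporters that take up, modify and export such compounds.

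A filter on dim spots kept 188 of 289 probes, for 184 genes (those whose spots passed background on 6 or more of 18 arrays), and 144 of these were above background on every array. Median gene-spot intensity ran from 206 to 376 in the mouse channel and 155 to 218 probes passed background on an array, both highest on vehicle 5. The spike-in controls had a median log2 ratio before normalisation of -0.006 on vehicle 5 and of -1.46 to -0.42 on the other arrays. Arrays of atorvastatin 4 and vehicle 5 stood apart from the others. Their median correlation with the remaining arrays across probes was -0.46 and 0.25, against 0.64 or more for the other 16 arrays. Without the serum amyloid A genes Saa1, Saa2 and Saa3 it was 0.01 and -0.08, against 0.16 to 0.47 for the other 16 arrays. The 5 hepatocyte markers on the array (Alb, Apoa1, Apob, Cyp2e1, Cyp3a11) were all measured. Of 15 markers of other liver or fat cells 3 were on the array and 2, Adipoq and Icam1, were measured, and in a piece of liver fewer cells of a type and less RNA per cell cannot be told apart.

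No transcript passed the test for an average statin effect. In limma 0 of 188 probes reached an adjusted p of 0.05, the smallest adjusted p being 0.510, shared by 9 probes. An unadjusted p under 0.05 was found for 16 probes (8.51% of those tested, where 9.4 are given by chance), with 9 above vehicle (4.79%) and 7 below (3.72%). The probes split evenly, 94 below 0 and 94 above, around a median effect of -0.0015. For no probe were the statin and vehicle mice without overlap. Leaving out vehicle 5 gave 38 probes with an unadjusted p under 0.05 in limma (12 higher and 26 lower), and leaving out vehicle 1 or vehicle 6 gave 8. In each of these fits 0 probes passed the adjusted threshold.

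The median standard error of the average effect was 0.0975, against 0.113 for a single drug, and the median residual SD was 0.197. The 95% interval lay within 1 log2 unit of 0 for 180 probes and within 0.5 log2 units for 144. The 8 genes with wider intervals were Cyp17a1, Acas2, Fdps, Fasn, Cyp26a1 and the acute-phase genes Saa1, Saa2 and Saa3. Effects ran from -0.83 (Acas2) to 0.34 (Alas1).

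**Figure D1:**
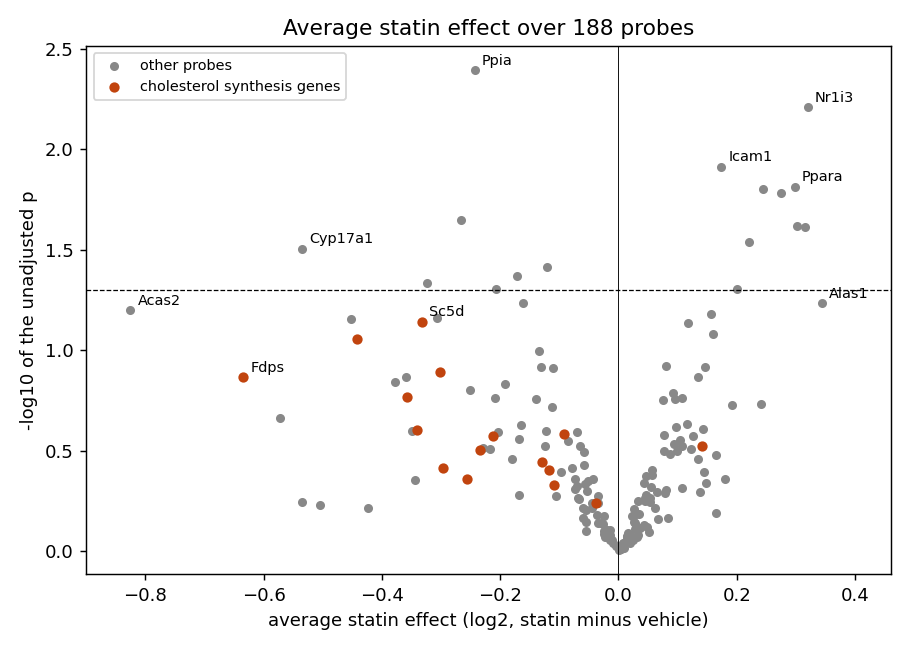
Average statin effect (x axis, log2, statin minus vehicle) against -log10 of the unadjusted p in limma (y axis) for 188 probes, each point a probe, with cholesterol synthesis genes in red and the dashed line at an unadjusted p of 0.05. Ppia had the smallest p and Acas2 the effect farthest below 0, and 15 of the 16 cholesterol synthesis genes lie left of 0 and below the line.

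All 4 measured xenobiotic receptors lay above vehicle (3 of 4 when arrays were shifted on the spike-in controls). CAR (Nr1i3), PXR (Nr1i2) and their partners Rxra and Rxrb had average effects of 0.32, 0.27, 0.13 and 0.06. Their median was 0.20, beside -0.0015 over all probes, of which 50% lay above 0. An unadjusted p under 0.05 in limma was reached by 2 of the 4, beside 8.51% of all probes. Nr1i3, the receptor for phenobarbital-like inducers, had log2 ratios of -0.57, -0.29 and -0.17 (lowest, median and highest) in vehicle, -0.20, 0.06 and 0.31 in rosuvastatin and -0.48, -0.03 and 0.25 in atorvastatin mice. Of the statin mice 11 of 12 were above the vehicle mean and 9 lay above the whole vehicle range, yet the groups overlapped. The average effect was 0.32 (SE 0.10, n = 6 mice per group, limma adjusted p = 0.510), or 1.25 times the vehicle level.

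Nr1i2, the receptor through which many drugs induce P450 enzymes, was less evenly placed. Its ratios were -0.46, -0.20 and 0.12 in vehicle, -0.01, 0.12 and 0.73 in rosuvastatin and -0.17, -0.11 and 0.11 in atorvastatin mice. All atorvastatin values lay inside the vehicle range, and 3 rosuvastatin values lay above it. The average effect of 0.27 (SE 0.10, limma adjusted p = 0.510) was made up of 0.41 with rosuvastatin and 0.14 with atorvastatin, and Nr1i2 was above background on 2, 3 and 3 of 6 arrays in vehicle, rosuvastatin and atorvastatin. With plain background subtraction the effect was 0.78.

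Genes of drug and bile acid handling, of which several are known to be controlled by these receptors, lay on both sides of 0. The examples are no fixed list of receptor targets. Abcc3, a basolateral exporter of conjugated bile acids, had an effect of 0.32 (SE 0.13, adjusted p = 0.510 in limma), with ratios of -0.74 to 0.16 in vehicle and -0.24 to 0.37 in statin mice. Alas1, which starts haem synthesis and sets its pace, had 0.34 (SE 0.17, adjusted p = 0.571), the effect farthest above 0. Cyp2b10 and Cyp3a11, the P450s used as readouts of CAR and PXR, had effects of 0.00 and 0.08, and the pool channel was saturated for Cyp3a11 on all 18 arrays. Cyp2b9 and Cyp2b13 had -0.02 and -0.07, the exporters Abcc2 and Abcb1a -0.04 and -0.05 and the uptake carrier Slco1a4 -0.17. Slco1b2, which takes statins and bile acids into hepatocytes, had 0.20 (adjusted p = 0.571), the same with each drug. The pool channel was saturated for it on 8 arrays. Over the list of drug metabolism P450s 10 of 15 genes were above 0 (5 on the spike-in scale), with a median of 0.01. Cyp2e1, which oxidises ethanol, had 0.22 (SE 0.09, adjusted p = 0.534 in limma), with the pool saturated on 9 arrays, and 0.09 on the spike-in scale and 0.04 in the deposited value table. Cyp2a4, a female-predominant steroid hydroxylase, had -0.21 (SE 0.10, adjusted p = 0.571). Hepatocyte markers, to which Cyp2e1 and Cyp3a11 belong, were above 0 for 5 of 5 (1 of 5 on the spike-in scale), with a median of 0.08, which is the value of Cyp3a11. The pool was saturated for Alb on 18, for Cyp3a11 on 18, for Cyp2e1 on 9 and for Apoa1 on 6 arrays. Their mean log2 ratio was -0.04 to 0.27 in vehicle and -0.04 to 0.48 in statin mice, and its part in the P450 values was not tested.

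**Figure D2:**
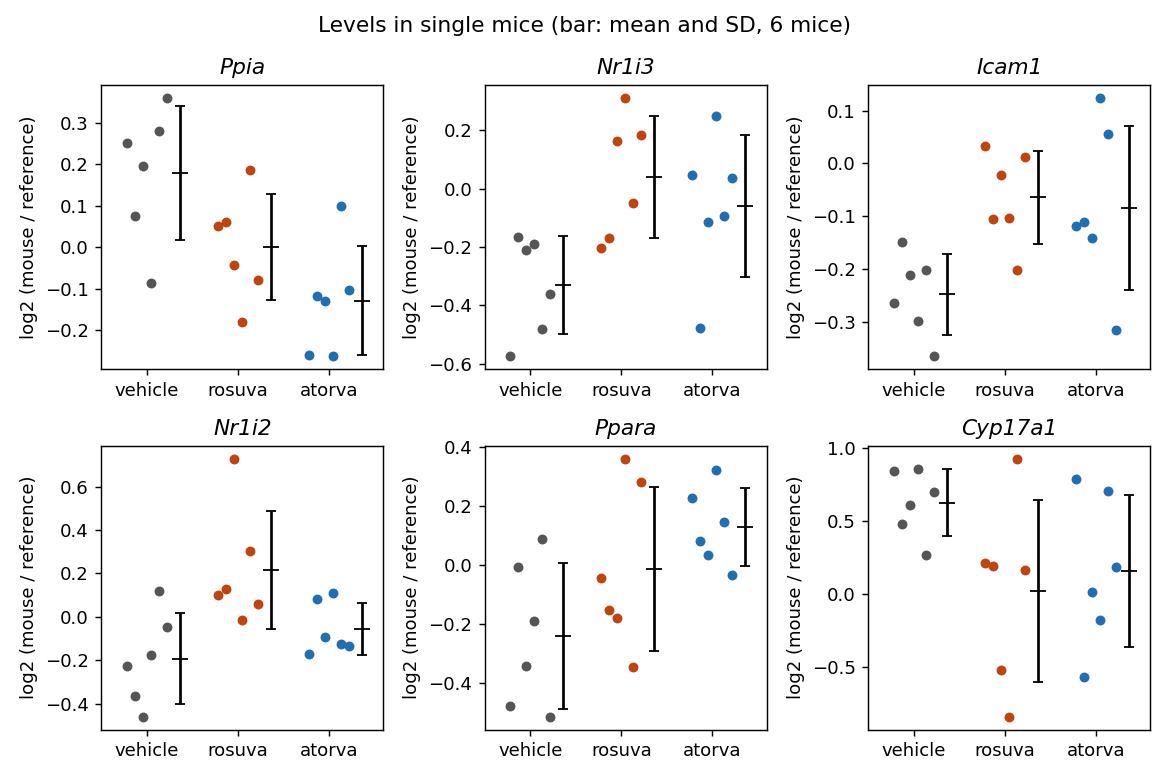
Log2 ratio of each mouse over the pooled reference (y axis) for 6 genes with an unadjusted p under 0.05, by group (x axis), with the mean and SD of 6 mice beside the points. Statin and vehicle mice overlap for every gene, and Cyp17a1 spreads more widely in both statin groups than in vehicle.

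Ppara, the fatty acid sensing receptor, and Icam1 had average effects above 0. Ppara had ratios of -0.51, -0.27 and 0.09 in vehicle, -0.34, -0.10 and 0.36 in rosuvastatin and -0.04, 0.11 and 0.32 in atorvastatin mice, with an average effect of 0.30 (SE 0.11, limma adjusted p = 0.510). Its coactivator Ppargc1a had 0.16, Cpt1a, which admits fatty acids to mitochondria, 0.13, and Ucp2, a mitochondrial carrier, -0.32 (SE 0.15, adjusted p = 0.571), with Ucp2 above background on 4, 3 and 3 of 6 arrays in vehicle, rosuvastatin and atorvastatin. Fatty acid oxidation and ketogenesis thus held 4 of 5 genes above 0 with a median of 0.13. Icam1, an adhesion molecule of endothelium and inflamed cells, had an effect of 0.17 (SE 0.06, limma adjusted p = 0.510), with -0.36 to -0.15 in vehicle and -0.32 to 0.12 in statin mice. Of the statin mice 10 lay above the vehicle range, the highest count among the 16 probes, although Icam1 was above background on only 3, 5 and 2 of 6 arrays in vehicle, rosuvastatin and atorvastatin. Nfkbia, the inhibitor that holds NF-kB in the cytoplasm, had 0.30 (SE 0.12, adjusted p = 0.510). The remaining NF-kB and stress kinase genes, Mapk8, Fos, Mapk9 and Stat3, lay between -0.11 and 0.10. Fos was above background on 3, 3 and 2 of 6 arrays in vehicle, rosuvastatin and atorvastatin. Adipoq, the fat cell marker, had 0.08 and was above background on 2, 3 and 4 of 6 arrays in the same order. Nr3c4, a probe name with no match in RefSeq, had 0.24 (SE 0.09, adjusted p = 0.510), or 0.15 without vehicle 5, where its ratio was lowest, and was above background on 2, 4 and 4 of 6 arrays in vehicle, rosuvastatin and atorvastatin.

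Below vehicle, Ppia (cyclophilin A, often taken as a reference transcript) had the smallest p of all probes. Its ratios were -0.09, 0.22 and 0.36 in vehicle, -0.18, 0.00 and 0.19 in rosuvastatin and -0.26, -0.12 and 0.10 in atorvastatin mice. A single statin mouse was above the vehicle mean, and 6 of 12 were inside the vehicle range. The effect was -0.24 (SE 0.07, limma adjusted p = 0.510), or 0.845 times vehicle, and the median of the 3 measured reference genes was -0.21, with 2 of them below 0 (3 on the spike-in scale). Actb had 0.07. Pdhb, a subunit of pyruvate dehydrogenase, had -0.27 (SE 0.11, adjusted p = 0.510) and Sumo2, a small protein modifier, -0.12 (SE 0.05, adjusted p = 0.571).

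Cyp17a1, the steroid 17-hydroxylase, had a lower mean and a wider spread in the statin groups, though the level did not pass and the spread was not tested. Vehicle mice lay at 0.27, 0.65 and 0.86, rosuvastatin mice at -0.84, 0.18 and 0.92 and atorvastatin mice at -0.57, 0.10 and 0.78. Of the statin mice 9 lay below every vehicle mouse and the other 3 above the vehicle median. The average effect was -0.54 (SE 0.23, n = 6 per group, limma adjusted p = 0.534), and the SD was 0.23 in vehicle against 0.62 and 0.52 in rosuvastatin and atorvastatin. The other steroidogenic P450s, Cyp21a1 and Cyp11a1, had effects of 0.05 and 0.03. Cyp11a1 was above background on 3, 2 and 4 of 6 arrays in vehicle, rosuvastatin and atorvastatin.

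The 16 probes at an unadjusted p under 0.05 stood for 16 genes, 15 of them by their main probe. The other was a second probe of the reference gene Gapdh, at -0.17 (SE 0.08, limma adjusted p = 0.571), whose main probe had -0.21 (SE 0.15, adjusted p = 0.737). Both drugs were set against the same vehicle mice, and their effects are given side by side for that reason. With rosuvastatin and atorvastatin these were 0.37 and 0.27 for Nr1i3, 0.23 and 0.37 for Ppara, 0.28 and 0.35 for Abcc3, -0.60 and -0.47 for Cyp17a1 and -0.18 and -0.31 for Ppia. Cebpz, a CCAAT-binding factor, was next after the 16 in order of p, with an average effect of -0.16 (SE 0.08, limma adjusted p = 0.571) made up of -0.04 and -0.29 (-0.10 without vehicle 5), and Gfpt2, of the hexosamine pathway, had 0.12 (0.10 and 0.13). The difference between atorvastatin and rosuvastatin passed at an adjusted p of 0.05 for 0 of 188 probes in limma (smallest adjusted p 0.653), with an unadjusted p under 0.05 for 10 (5.32%). Among the 16 it was under 0.05 for 1, Nr1i2, at -0.27 (95% interval -0.52 to -0.02).

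**Figure D3:**
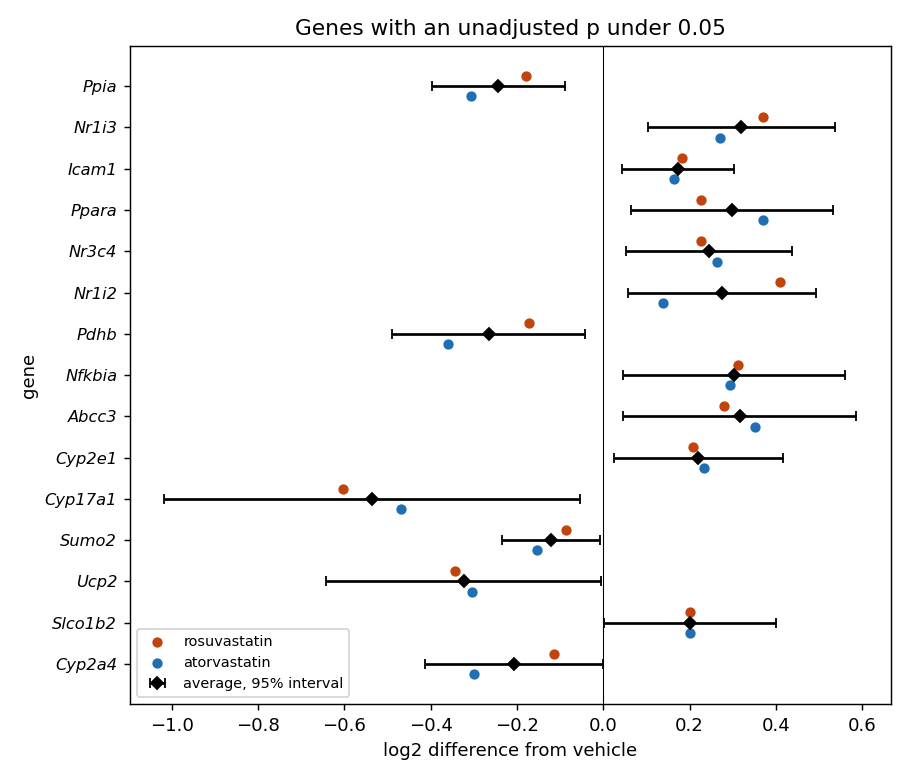
Log2 difference from vehicle (x axis) for the 15 genes with an unadjusted p under 0.05 in limma, from the smallest p at the top. Diamonds give the average of both drugs with its 95% interval, red points rosuvastatin and blue points atorvastatin, each against the same vehicle mice. The widest interval is that of Cyp17a1, and the drugs lie farthest apart for Nr1i2.

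Cholesterol synthesis, the pathway that statins inhibit, lay below vehicle on average and none of its genes passed the test. Of 16 measured genes 15 had an average effect below 0, where 50% of all probes did, and the list median was -0.25 (-0.40 with rosuvastatin and -0.10 with atorvastatin). An unadjusted p under 0.05 was reached by 0 of the 16. Among the early enzymes the average effect was -0.09 for Acat2 (a symbol in use for a thiolase and for a sterol acyltransferase), -0.36 for Hmgcs1, which condenses acetyl units to HMG-CoA, -0.12 for mevalonate kinase Mvk and -0.23 for the decarboxylase Mvd. In the isoprenoid and squalene steps the values were -0.11 for the isomerase Idi1, -0.63 for farnesyl diphosphate synthase Fdps and -0.21 for squalene synthase Fdft1. In the sterol steps they were -0.44 for Lss, which closes the sterol ring, -0.26 for the demethylase Cyp51, -0.30 for Msmo1, -0.34 for Nsdhl, -0.04 for the isomerase Ebp, -0.33 for Sc5d and -0.13 for Dhcr7. The size of these values changed with the vehicle mouse left out. They ran from -0.59 (without vehicle 5) to -0.04 (without vehicle 1) for Cyp51, and between the same omissions from -1.04 to -0.40 for Fdps, -0.68 to -0.26 for Lss, -0.61 to -0.18 for Hmgcs1, -0.60 to -0.18 for Nsdhl and -0.07 to 0.01 for Ebp. Between leaving out vehicle 5 and vehicle 3 they ran from -0.60 to -0.16 for Msmo1, -0.45 to -0.12 for Mvd, -0.36 to -0.11 for Fdft1, -0.26 to -0.03 for Dhcr7 and -0.21 to -0.05 for Mvk. Acat2 was at -0.04 without vehicle 1 and Idi1 at -0.02 without vehicle 6.

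Vehicle mice spanned a wide range for these genes. Fdps had ratios of -1.82, 0.41 and 1.37 in vehicle, -1.71, -0.50 and 0.28 in rosuvastatin and -1.08, 0.06 and 0.19 in atorvastatin mice, so that every statin mouse lay inside the vehicle range. Its effect was -0.63 (SE 0.41, limma adjusted p = 0.734). Lss had -1.03, 0.28 and 1.06 in vehicle, -1.02, -0.20 and -0.04 in rosuvastatin and -0.71, -0.06 and 0.19 in atorvastatin mice (effect -0.44, SE 0.24, adjusted p = 0.635), again with 0 statin mice outside the vehicle range. Sc5d, with the smallest p of the list, had -0.29, 0.34 and 0.78 in vehicle, -0.62, 0.13 and 0.28 in rosuvastatin and -0.53, 0.11 and 0.42 in atorvastatin mice (effect -0.33, SE 0.17, adjusted p = 0.571). Cyp51 and Msmo1 were below vehicle with rosuvastatin (-0.59 and -0.67) and at 0.07 and 0.08 with atorvastatin. The genes moved together from mouse to mouse. Vehicle 5 was the lowest vehicle mouse for 13 of the 16 genes and vehicle 1 the highest for 9. The array of vehicle 5 also stood apart on the spike-in controls, and the part of this in its values was not tested. Atorvastatin 4 was the lowest of its group for all 16, and rosuvastatin 3 and 4 were lowest for 5 and 10. The mean over the list was 0.62, -0.06, 0.39, 0.01, -0.75 and 0.33 in vehicle mice 1 to 6. It was -0.19, -0.08, -0.73, -0.76, 0.16 and -0.11 in rosuvastatin mice 1 to 6 and 0.24, 0.06, -0.19, -0.53, 0.12 and 0.25 in atorvastatin mice 1 to 6. Each group thus held at least 1 mouse with a low list mean, and 13 of the 16 genes had a larger SD in vehicle than in either statin group (median SD 0.48, 0.36 and 0.36 in vehicle, rosuvastatin and atorvastatin). Over all probes the median SD was likewise highest in vehicle, at 0.223, 0.189 and 0.163.

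**Figure D4:**
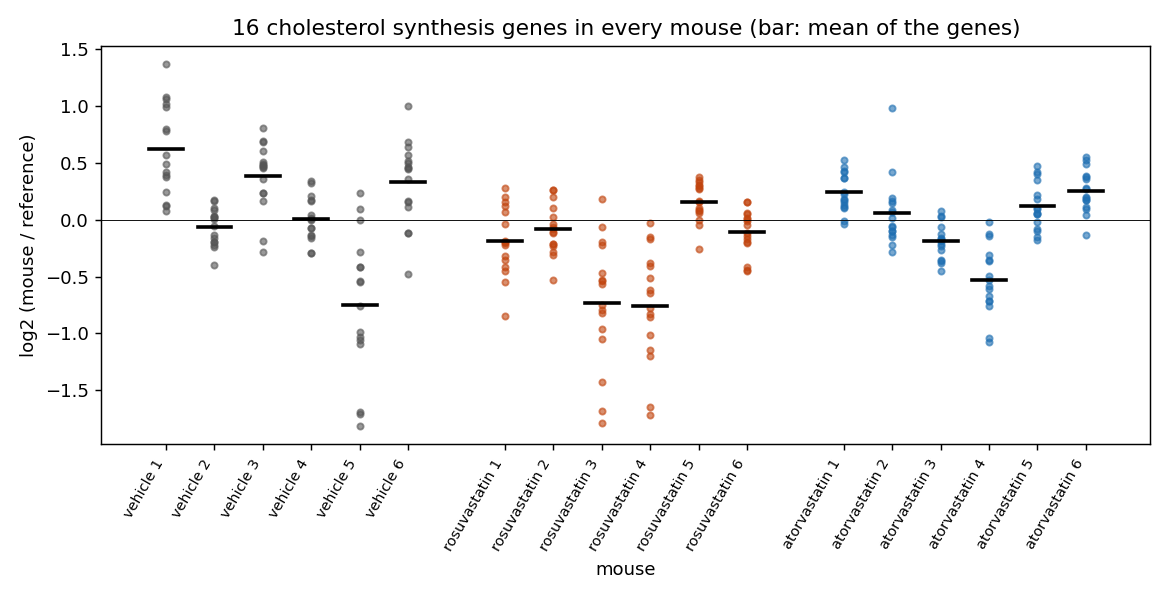
Log2 ratios over the pooled reference (y axis) of the 16 measured cholesterol synthesis genes, each a point, in every mouse (x axis), with the mean over the genes as a bar. The genes of a mouse shift as a block, with list means from -0.75 (vehicle 5) to 0.62 (vehicle 1) in the vehicle group alone.

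The direction of this list turned with the arrays used. Without vehicle 5 its median was -0.45. The files record how many pixels were read as background around a spot, and 11 arrays (4 vehicle, 4 rosuvastatin and 3 atorvastatin) shared 1 value, 197. Within these 11 the median was 0.16, with 2 of 16 genes below 0, and without vehicle 5 it was -0.04 there, with 9 of 16 below 0. Fdps was at 0.21 and Cyp51 at 0.43 in the 11 arrays. The vehicle mice left out of that set, 1 and 3, were those with the highest list means, and the rosuvastatin and atorvastatin mice with the lowest were left out too.

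Because these genes shifted together, the DNA before their starts is shown for 4 of them. RefSeq (GRCm38.p6) gave promoters for 12 of the genes reported, 14 windows in all. The 250 bases before each start were searched on both strands for TCACNCCAC, a spelling of the sterol regulatory element, and for CCAAT. The letters CCAAT are bound by NF-Y, a known partner of SREBP. Other spellings of the element were not searched for, so a window without TCACNCCAC may still hold one. TCACNCCAC was present in 1 of the 14 (7.14%), that of Hmgcs1, and in 1.05% of all 32851 promoters. CCAAT was in 11 of the 14 (78.6%) and in 33.8% of all. Capitals mark both, with ATTGG as CCAAT on the other strand, and the searched motifs do not overlap in the windows shown. The windows are chr13:119690201-119690350 (plus strand) for Hmgcs1, chr5:4104698-4104817 (minus strand) for Cyp51, chr8:64733579-64733698 (minus strand) for Msmo1 and chrX:72918401-72918520 (plus strand) for Nsdhl, each ending at the base before the start.
Hmgcs1: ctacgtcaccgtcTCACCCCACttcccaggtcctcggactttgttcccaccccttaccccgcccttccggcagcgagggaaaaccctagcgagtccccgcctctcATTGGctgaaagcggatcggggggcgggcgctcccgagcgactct
Cyp51: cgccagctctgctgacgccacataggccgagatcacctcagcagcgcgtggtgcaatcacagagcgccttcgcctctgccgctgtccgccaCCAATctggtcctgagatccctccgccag
Msmo1: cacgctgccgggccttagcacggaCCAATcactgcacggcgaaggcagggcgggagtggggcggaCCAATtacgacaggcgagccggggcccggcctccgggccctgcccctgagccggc
Nsdhl: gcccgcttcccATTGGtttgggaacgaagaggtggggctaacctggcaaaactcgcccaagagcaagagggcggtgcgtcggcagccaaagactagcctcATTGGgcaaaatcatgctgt
A match is a description of letters and no evidence of binding.

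Genes around the pathway lay mostly below vehicle as well with all 18 arrays. In the list of SREBP pathway and LDL uptake 4 of 5 measured genes were below 0, with a median of -0.17. Insig1 and Insig2, which retain SREBP in the endoplasmic reticulum, had effects of -0.17 (SE 0.26, limma adjusted p = 0.866) and -0.25 (SE 0.17, adjusted p = 0.737), the escort Scap -0.03 and the protease Mbtps1 0.05. In the 11 arrays of equal background area Insig1 turned to 0.34 and Mbtps1 to -0.10. Mbtps1 was above background on 4, 4 and 3 of 6 arrays in vehicle, rosuvastatin and atorvastatin. Insig1 was at -0.32 without vehicle 5 and -0.04 without vehicle 1, without vehicle 6 Insig2 was at -0.16, and Scap was at 0.03 without vehicle 5. Acas2, an old symbol of an acetyl-CoA synthetase that can stand for several genes, had the effect farthest from 0 on the array at -0.83 (SE 0.42, limma adjusted p = 0.571). Its ratios were -1.30, 1.06 and 1.76 in vehicle, -1.45, -0.22 and 0.56 in rosuvastatin and -0.94, 0.25 and 0.75 in atorvastatin mice, and 11 of 12 statin mice were inside the vehicle range. Without vehicle 5 it was -1.23, and in the 11 arrays of equal background area 0.02. Fatty acid synthesis held Scd1 (stearoyl-CoA desaturase) at -0.45 (SE 0.23, adjusted p = 0.571), Fasn (fatty acid synthase) at -0.57 (95% interval -1.52 to 0.37) and Mlxipl, a glucose-responsive transcription factor, at 0.12. Vehicle 5 was the lowest vehicle mouse for both Acas2 and Fasn. Pklr, the liver pyruvate kinase, had -0.31 (SE 0.16, adjusted p = 0.571), or -0.18 without vehicle 6. For Scd1 the pool channel was saturated on 9 arrays, and its effect was -0.06 in the 11 arrays.

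Bile acid synthesis and lipoprotein genes had median effects near 0. Cyp7a1, the rate-limiting enzyme of bile acid synthesis, had an effect of 0.02, Cyp27a1 0.01, the bile acid receptor FXR (Nr1h4) -0.01, and Cyp7b1, of the alternative route, 0.16 (SE 0.08, limma adjusted p = 0.571), with 0.26 for rosuvastatin and 0.06 for atorvastatin, and 0.10 on average without vehicle 5. Cyp7a1 was above background on only 3, 5 and 3 of 6 arrays in vehicle, rosuvastatin and atorvastatin. The list had 5 of 7 genes above 0 (2 on the spike-in scale) and a median of 0.02. Among apolipoproteins and lipid transfer the median was 0.01 over 10 genes, from -0.14 for Apoc3, an inhibitor of triglyceride clearance (-0.07 without vehicle 6), to 0.15 for the HDL receptor Scarb1. The sterol exporter Abcg8 had -0.35 (95% interval -0.97 to 0.27) and Abca1 -0.10. Over the ABC exporters 8 of 11 were below 0, with a median of -0.04.

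Serum amyloid A genes, which encode acute-phase proteins of inflamed liver, had the widest intervals. Saa1, Saa2 and Saa3 had effects of -0.53, -0.51 and -0.42, with an interval from -2.49 to 1.42 for Saa1, and Saa4, the constitutive member, 0.11 (0.04 without vehicle 6). With rosuvastatin the effects of Saa1, Saa2 and Saa3 were -1.14, -1.11 and -1.02 and with atorvastatin 0.07, 0.10 and 0.17. Without atorvastatin 4 the list median of -0.46 was -0.99. Saa1 ratios were -5.56, -4.47 and -1.44 in vehicle (lowest, median and highest), and -5.65, -5.40 and -3.47 in rosuvastatin and -5.87, -5.17 and 1.65 in atorvastatin mice, where the highest was atorvastatin 4. Vehicle 5 was the highest vehicle mouse. Both mice were also the lowest of their groups in list mean for cholesterol synthesis. Other acute-phase and complement genes had a median of -0.06, with Crp at 0.14. Glucose and insulin signalling had a median of 0.04 over 14 genes. Of the circadian clock genes Cry1, a repressor of the clock, had 0.12 (0.06 without vehicle 2) and the other 3 lay between -0.07 and -0.03.

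**Figure D5:**
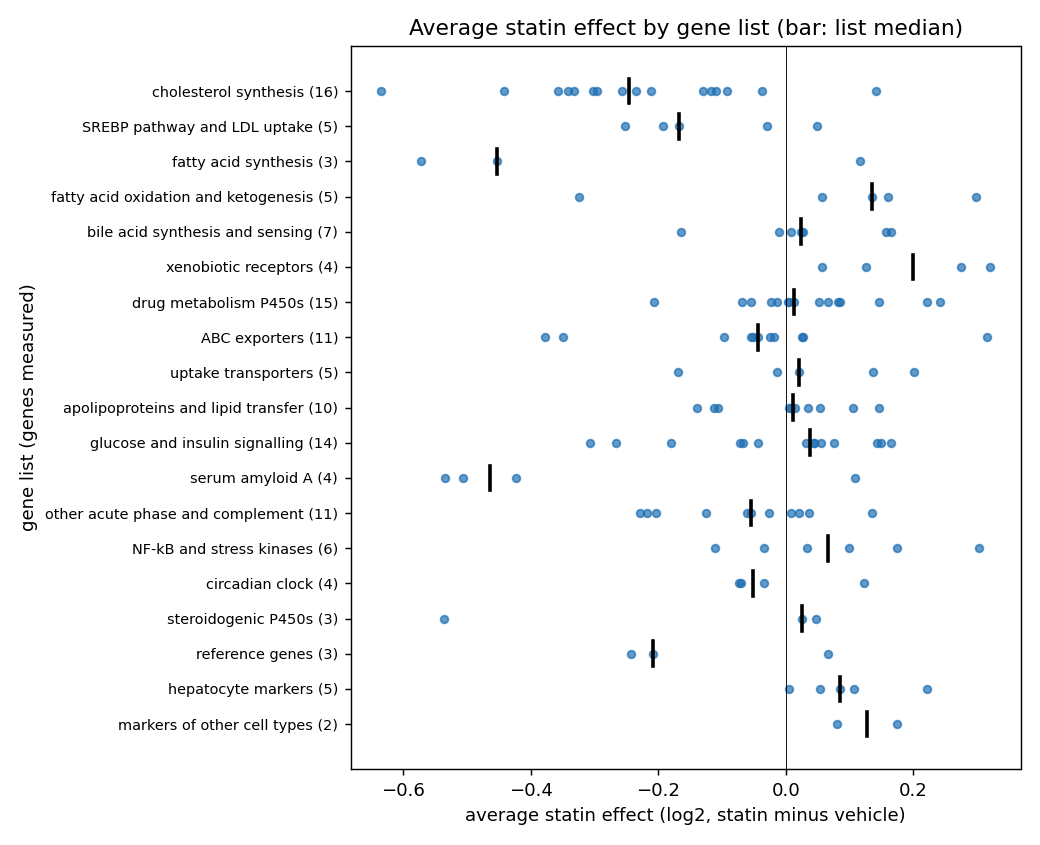
Average statin effect (x axis, log2, statin minus vehicle) of the measured genes, each a point, in the 19 lists with at least 2 measured genes (y axis), with the list median as a bar. Cholesterol synthesis lies mostly left of 0 and all 4 xenobiotic receptors lie right of it (3 of 4 on the spike-in scale), and no gene of any list passed the adjusted threshold.

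How far the leading values depended on the arrays was read from the same 11 arrays of equal background area. There the average effect was 0.18 for Nr1i3, 0.16 for Nr1i2, 0.16 for Ppara, 0.19 for Nfkbia, -0.15 for Ppia, -0.34 for Cyp17a1 and -0.11 for Ucp2, while Icam1 (0.16), Abcc3 (0.29) and Sumo2 (-0.12) stayed near the value over all arrays and Alas1 was at 0.61. Of the 4 xenobiotic receptors 2 were above 0 there. The signs of the 15 genes with an unadjusted p under 0.05 held in every alternative that measured them. These genes were chosen for a small p in the same arrays, so their signs are no independent check. Of the 16 probes, 1 kept an unadjusted p under 0.05 in limma in the 11 arrays, 3 on the spike-in scale and 1 in the deposited value table. Leaving out 1 mouse at a time gave 0.27 to 0.36 for Nr1i3, 0.15 to 0.20 for Icam1 and -0.30 to -0.21 for Ppia.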

How the data were processed

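Liver RNA of 18 mice was measured on 2-colour cDNA arrays, 6 arrays for each group. The deposited per-array values are spot intensities, that is, median brightness of spot and local background in both channels on a linear scale, with no correction per the file headers. A second deposited file holds log2 ratios per probe and array, and how they were made is not given in the sources used here. Set against the intensities it ran in the direction of sample over pool (r of 0.809 to 0.979 across probes), with column medians of -0.32 to 0.564 and 2093 empty gene values, and it served as an alternative.

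The software was limma 3.58.1 (with statmod 1.5.0) under R 4.3.3. Background was corrected by normexp with an offset of 50, ratios were normalised by loess within arrays with control spots at weight 0, and spots of a probe were averaged. A spot was above background where it passed the local background plus 2 SDs, and probes above it on at least 6 of 18 arrays were kept. There were no dye swaps, so the order of the dyes was common to all groups. The median log2 ratio of the spike-in controls before normalisation still ran from -1.46 to -0.006 between arrays. Its part in the effects was not tested. The number of arrays limits the precision.

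A limma fit (lmFit, eBayes) with a mean per group gave (rosuvastatin + atorvastatin)/2 minus vehicle and atorvastatin minus rosuvastatin. Tests were two-sided, with Benjamini-Hochberg adjustment over the 188 probes. The fit was tested on simulated data with independent noise for each probe and known changes larger than any average effect found here. How well it picks up smaller changes was not tested. Where a gene had several probes the brightest was used. Named genes were the 24 with the smallest p, the measured members of the cholesterol synthesis and SREBP lists and the first of every other list with at least 2 measured genes, apart from other members given as examples, chosen with their values in view. A few are not reported here but stay in counts and medians. The comparison and the 21 textbook gene lists were chosen with earlier results of these data known. Of 289 probe names 273 matched RefSeq (GRCm38.p6), which gave names and promoters alone. Alternatives changed background correction, normalisation, spot summary, filter, weights, the fit, the arrays used and the value table.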

Additional observations from a re-analysis of the deposited data

Results flagged for a closer look

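Among 135 sets of 6 mice (a named gene in a group), 11 held a mouse whose gap to its nearest neighbour was large for the range of the set, and chance marks about 1 in 20 sets. Vehicle 5 accounted for 3 of them. It was the lowest vehicle mouse for Nr3c4 at -0.58 and for Msmo1, a sterol methyl oxidase, at -1.71, where the next vehicle mouse was at -0.30, and the highest for the acute-phase gene Crp at -0.010. Vehicle 6 was the highest of its group for Idi1 (0.64) and Mbtps1 (0.20) and the lowest for Saa4 (-0.46), and vehicle 2 was the lowest for Cry1 (-0.52). In rosuvastatin mice, number 4 was the lowest for Cyp2a4 (-0.17) and number 5 the highest for Pklr (0.62). In atorvastatin mice, number 1 was the highest for Nr3c4 (0.39) and number 4 the highest for Crp (0.28).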

How the results depend on the processing

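No probe passed an adjusted p of 0.05 in limma under any of 36 alternatives, the smallest being 0.0724 for Ppia with robust regression. The count at an unadjusted p under 0.05, 16 over all arrays, was 4 with arrays shifted on the spike-ins, 10 with probes above background on all 18 arrays, 26 with robust regression, 7 with background area as a block, 3 in the 11 arrays of equal area, 2 with the deposited value table, 34 without both arrays that stand apart, and 8 to 38 with 1 mouse left out. Its split was 9 higher and 2 lower with median centring and 5 and 14 with array weights. Below 0 lay 69.1% of probes on the spike-in scale and 76.5% in the value table, which moved the median of all probes to -0.05 and -0.09. Of 2 alternatives added after seeing the data, the centred value table gave 14 probes and the 11 arrays without vehicle 5 gave 3. With the replicate number as a block the count was 18 and the smallest adjusted p 0.191. The main fit did not treat same-numbered mice as pairs. Correlations of same-numbered mice ran from -0.603 to 0.613, with every pair over 0.1 for 1 of 6 numbers. Of 18 mice 5 matched their own number best. Whether mice of the same number shared a batch was not tested.

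The median of the cholesterol synthesis list was 0.16 in the 11 arrays of equal area and -0.45 to -0.13 with 1 mouse left out. Signs turned mainly in those 11 arrays, with Acas2 at 0.018, Lss 0.073, Fdps 0.21, Hmgcs1 0.15, Nsdhl 0.27, Fdft1 0.20, Mvd 0.23, Dhcr7 0.18, Msmo1 0.33, Mvk 0.14, Cyp51 0.43, Idi1 0.038, Insig1 0.34, Ebp 0.069 and Mbtps1 -0.10. Without vehicle 5 in that set, Cyp7b1 was at -0.032, Fdft1 0.036, Dhcr7 0.021, Mvk 0.030, Cyp51 0.013, Idi1 0.041, Insig1 0.14, Ebp 0.041, Scap 0.095 and Mbtps1 -0.11. Elsewhere Scap was at 0.028 with median centring, 0.0032 with array weights, -0.070 to 0.033 with 1 mouse left out and 0.034 without both arrays that stand apart. Mbtps1 was at -0.0099 and Saa4 at -0.030 on the spike-in scale, Mbtps1 at -0.020 with the area block, Gfpt2 at -0.074 and Saa4 at -0.043 in the value table, Dhcr7 at 0.040 in the centred table and Ebp at -0.069 to 0.0093 with 1 mouse left out. The other 1570 values of named genes kept their direction. Causes were not tested. Ratios of probes near background or with a saturated pool channel are the least certain.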
